A study of Mus musculus with 9 samples.

Results

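The PYHIN family, also called the AIM2-like receptors, was followed across 9 bulk RNA-seq libraries of mouse brain. Its members were chosen by name as the family genes present in the deposited table, which gave 9 of the 1710 genes listed: Aim2, Ifi203, Ifi204, Ifi205, Ifi206, Ifi207, Ifi209, Ifi211 and Mndal. They were matched by Ensembl identifier, because the table's symbol column gives the name Ifi204 to Ifi207 as well as to Ifi204 itself. The same column names Ifi206 as Pydc3, Ifi209 as Pyhin1, Ifi211 as Mnda and Ifi205 as Ifi205a. Another 3 genes of the family in the table, Ifi208, Ifi213 and Ifi214, carry these shared symbols too and are described beside the members as relatives.

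The study asked how brain gene expression changed early after injection of adeno-associated virus (AAV), a vector for gene delivery, at different amounts; the series text names the serotype AAV9. All 9 libraries came from wild-type mice and from tissue labelled brain ctx, taken at the centre of the injected site 10 days after stereotaxic injection. The groups were named PBS (buffered saline), LowDose and HighDose, with 3 libraries each. The labels give the same treatment text for every library, PBS included, and do not state the amounts of virus behind the dose names, the transgene, the age of the mice (the series title calls them adult) or whether each library came from a separate animal. The p-values below therefore measure the spread between these libraries, which may be partly technical.

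Typical PYHIN proteins join a pyrin domain, which binds other pyrin-domain proteins, to a HIN domain, which binds double-stranded DNA, but not every protein of the mouse family has both. AIM2 is the cytosolic DNA sensor of the family: on binding DNA it assembles the adaptor ASC (gene Pycard) and caspase-1 into an inflammasome that matures IL-1β and IL-18 and cleaves gasdermin D. IFI204, a mouse relative of human IFI16, has been linked to interferon induction by DNA through STING, while Ifi203, Ifi205, Ifi206, Ifi207, Ifi209, Ifi211 and Mndal belong to the expanded mouse branch of interferon-inducible genes and are less well characterised.

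All 9 members lie on mouse chromosome 1 in a single gene cluster. With the 3 relatives the cluster covers chr1:173350879-174031810 (mm10), a stretch of 681 kb that also holds Ifi202b and the pseudogene Ifi203-ps, neither analysed here. Aim2 sits at the proximal end on the plus strand, Ifi209 is also on the plus strand, and the other 7 members are on the minus strand. The Aim2 span overlaps Cadm3 on the opposite strand, but the 2 genes share 0 exonic bases. Ifi211 lies inside the span of Mndal with 0 exonic bases in common, and Mndal shares 37 exonic bases with Ifi203 on the same strand.

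The promoters are shown because the family is known for its response to interferon. RefSeq promoter windows (GRCm38.p6, 250 bases before to 50 bases after the annotated start) were available for 8 of the 9 members, all but Ifi204. They were searched on both strands for GAAANNGAAA, the core of the interferon-stimulated response element, through which type I interferon raises many genes. Each line gives 60 bases, 5′ to 3′ on the gene's strand, with a match in capitals. Where there was no match in the window, the stretch from 70 to 11 bases before the start is given, all in lower case.
Ifi206 (chr1:173491324-173491383, minus strand): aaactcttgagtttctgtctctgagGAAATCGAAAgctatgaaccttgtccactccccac
Ifi207 (chr1:173741816-173741875, minus strand): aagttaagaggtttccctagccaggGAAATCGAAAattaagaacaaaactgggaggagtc
Mndal (chr1:173880189-173880248, minus strand): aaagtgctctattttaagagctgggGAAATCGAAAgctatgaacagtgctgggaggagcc
Ifi203 (chr1:173942493-173942552, minus strand): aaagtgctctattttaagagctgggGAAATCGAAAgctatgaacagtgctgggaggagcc
Ifi211 (chr1:173913049-173913108, minus strand): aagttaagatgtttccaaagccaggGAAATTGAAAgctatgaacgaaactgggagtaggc
Ifi205 (chr1:174031855-174031914, minus strand): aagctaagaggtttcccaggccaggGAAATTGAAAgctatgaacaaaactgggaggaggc
Ifi209 (chr1:173630789-173630848, plus strand): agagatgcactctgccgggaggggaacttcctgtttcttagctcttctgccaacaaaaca
Aim2 (chr1:173420534-173420593, plus strand): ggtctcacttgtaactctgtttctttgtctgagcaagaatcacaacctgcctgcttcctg

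GAAANNGAAA was found in a window of 6 of the 8 members and of all 3 relatives. Counted by window, it was in 7 of the 10 windows of members, against 3.44% of the 32851 promoter windows in the table. In Ifi203, Mndal, Ifi211, Ifi206 and Ifi207 the first base of the match shown lay 35, 36, 37, 40 and 41 bases before the start, and in Ifi205 it lay 134 bases before it. The exact form GAAATCGAAA, picked because it was the commonest match in the members' windows, was present in 16 windows (0.0487%) of the table, and 7 of those 16 belonged to the PYHIN cluster: Ifi203, Ifi206, Ifi207, Mndal, Ifi208, Ifi213 and Ifi214. Ifi203 and Mndal each had a second window in the table, without a match for Ifi203 and with GAAAGAGAAA on the other strand for Mndal. The window of Ifi205 held a further match that is not shown, GAAAGTGAAA on the other strand, 23 bases after the start. The shown windows of Ifi203 and Mndal were identical at 60 of 60 positions, and those of Ifi205 and Ifi211 at 54 of 60. The window of Aim2 and that of Ifi209 held no match. A second motif, TTCNNNGAA (the gamma-activated site), was in 8.3% of all windows and in 0 of the 10 windows of the 8 members. A match describes letters and not a bound site, and no match says only that these letters are not in this window.

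Library totals were 18.3 to 23.7 M, where M stands for 1000000, as recovered from the deposited counts and FPKM. The deposited table is itself a selection: all 1710 genes differ at least 2-fold between some pair of group means of FPKM, so tests that involve HighDose repeat part of that choice. The listed genes took 1.54% to 1.61% of the total in PBS libraries, 1.34% to 1.38% in LowDose libraries and 3.90% to 6.04% in HighDose libraries. The tissue label could not be checked against cortical or pan-neuronal markers, since 0 of those 8 genes were listed. All 8 striatal neuron markers were listed, with summed levels of 513 to 768 CPM (a gene's count for every 1000000 in its library's total) in PBS, 189 to 424 CPM in LowDose and 172 to 209 CPM in HighDose. Against PBS, edgeR with library totals called 8 of them lower in HighDose and 7 in LowDose, beside 10.7% and 2.15% of tested genes. With scaling within the listed genes these counts were 8 and 0.

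In HighDose brain all 9 members were higher than in PBS brain, and 8 of them ranked at 166 or better among the 1583 tested genes by log2 change. Ifi206, Ifi205 and Ifi209 showed the largest log2 changes, from 8.17 to 9.15, followed by Ifi204, Ifi211, Ifi207, Ifi203 and Mndal, from 5.57 to 7.89. Aim2, the inflammasome-forming member, changed least, by 1.21 on the log2 scale, and its direction turned with scaling within the listed genes. In bulk tissue more cells of a type and more RNA per cell cannot be told apart. The median over the 9 members was 7.72, beside 1.90 over all 1583 genes tested. The 9 calls have to be read against a table in which 86.3% of tested genes were called higher at an adjusted p under 0.05 in this comparison. All 9 members also had every HighDose library above every PBS library in CPM, as had 85.8% of the tested genes. Scaling within the listed genes, which treats most of them as equal between groups, shifted that median over all tested genes to between 0.19 and 0.22. With TMM factors 600 genes were then called higher and 464 lower, instead of 1366 and 169 (10.7% of those tested). Under those scalings 8 members stayed called, with log2 changes of 3.84 to 7.47 by TMM factors, and Aim2 was not called.

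**Figure D1:**
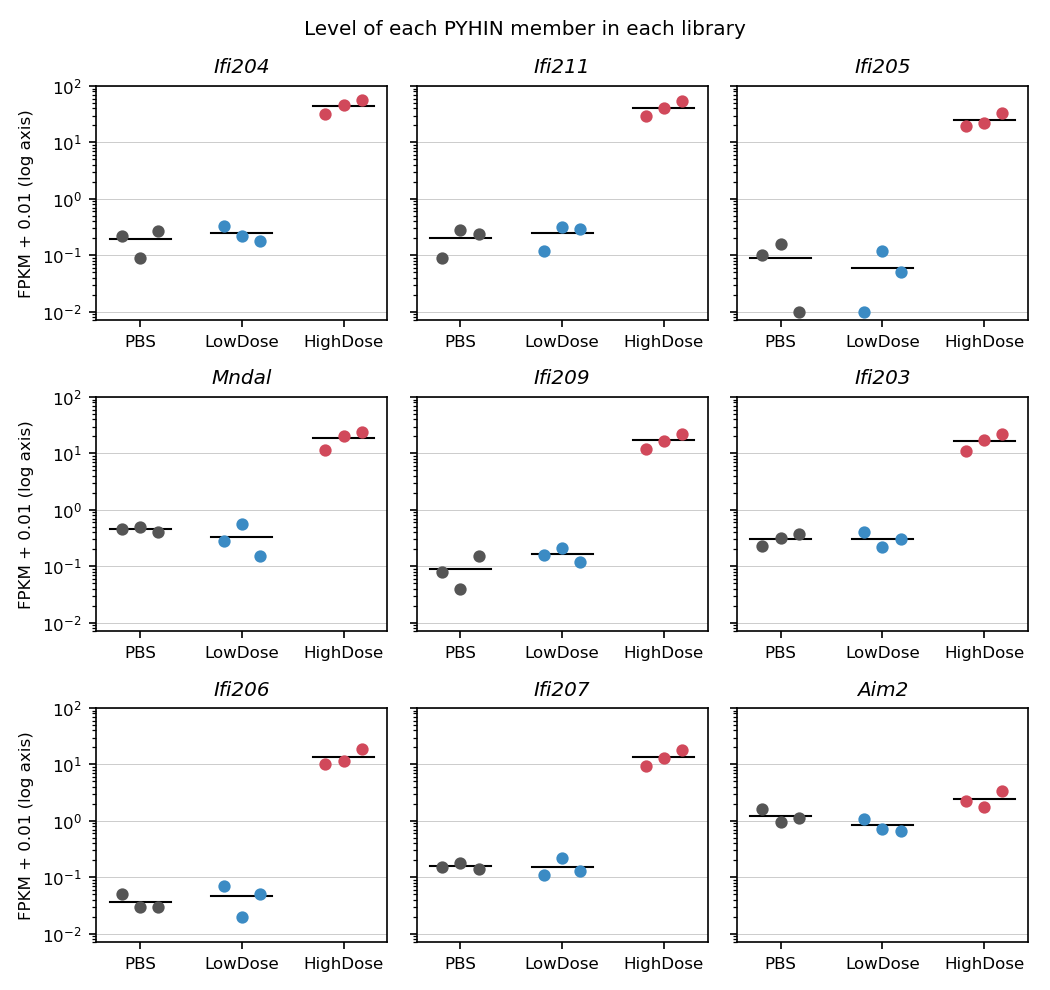
Level of each member in each library, as FPKM (fragments per kilobase and per 1000000 fragments) plus 0.01 on a log axis. Each point is a library, 3 per group, ordered by replicate number, and each bar is the group mean; the values are the authors' FPKM. The HighDose points of Ifi204 reach 32.5 to 55.3 FPKM, and those of Aim2, at 1.75 to 3.40 FPKM, lie below the HighDose points of every other member.

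Aim2 had 3.37, 4.02 and 5.50 CPM in HighDose libraries, against 2.18, 1.74 and 1.66 CPM in PBS libraries. These were 77 to 127 estimated counts in HighDose and 36 to 40 in PBS. In CPM the lowest HighDose library stood above the highest PBS library, as in 85.8% of the tested genes. The log2 change was 1.21 ± 0.34 (SE; edgeR quasi-likelihood test with Benjamini-Hochberg adjustment, adjusted p = 0.0011), and with scaling within the listed genes it became -0.51, -0.48 or -0.48, with adjusted p between 0.0606 and 0.0793. Among the 1583 tested genes Aim2 ranked 1122 by its log2 change, below the median, and by every one of these 3 scalings it stayed about 0.70 under the median of all genes, as it was with library totals (-0.69). Among the members Aim2 had the most variable ratio of count to FPKM over the HighDose libraries: the transcript length implied for it was 1511, 2296 and 1618 bases in the 3 HighDose libraries. Its annotated transcripts include protein-coding forms of 2839, 2079, 744 and 326 bases. The order of its HighDose libraries differed between FPKM, where replicate 2 was lowest, and CPM, where replicate 1 was lowest.

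Ifi204, the relative of human IFI16, had 74.7, 106 and 127 CPM in HighDose libraries, against 0.491, 0.194 and 0.602 CPM in PBS libraries. The highest PBS library held 13.1 estimated counts and the lowest HighDose library 1707. The groups lay far apart, and the ratio of summed counts per library total was 239 (95% exact interval 163 to 367, counting error only). The fitted log2 change was 7.89 ± 0.34 (SE, adjusted p = 1.53e-23 by edgeR's quasi-likelihood test).

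Ifi211 shares transcript sequence with both Ifi205 and Ifi204, and the values of these genes rest in part on how reads were divided. Ifi211 had 53.5, 71.8 and 96.7 CPM in HighDose libraries, against 0.134, 0.479 and 0.413 CPM in PBS libraries. Ifi205 had 31.2, 35.6 and 54.1 CPM in HighDose libraries, against 0.138, 0.247 and 0 CPM in PBS libraries. Every HighDose library of both genes was above every PBS library, as in 85.8% of the tested genes. PBS replicate 3 listed Ifi205 at 0, where a count of 0 allows up to 0.138 CPM. The log2 changes were 7.72 ± 0.36 for Ifi211 and 8.19 ± 0.43 for Ifi205 (SE; edgeR adjusted p = 5.88e-23 and 3.53e-21). The change of Ifi205 was 8.96 without PBS replicate 2 and 7.58 without PBS replicate 3, so its place among the members is not secure.

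Ifi206 had the largest fitted change of the 9 members, at rank 9 of the 1583 tested genes. It had 30.7, 34.9 and 57.0 CPM in HighDose libraries, against 0.109, 0.0484 and 0.0461 CPM in PBS libraries. PBS held 2, 1 and 1 counts, so the size of its change is loosely bounded: the ratio of summed counts was 623, with a 95% exact interval of 243 to 2290. That interval overlapped those of Ifi205, 156 to 712, and Ifi209, 162 to 622, so the first place of Ifi206 is not secure. Its fitted log2 change was 9.15 ± 0.43 (SE, edgeR adjusted p = 5.88e-23). Ifi209, on the plus strand, had 34.8, 47.9 and 64.4 CPM in HighDose libraries, against 0.164, 0.0969 and 0.231 CPM in PBS libraries. Its log2 change was 8.17 ± 0.38 (SE, edgeR adjusted p = 3.58e-23).

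Ifi203, Ifi207 and Mndal changed less than the other members except Aim2. Ifi203 had 36.6, 57.0 and 72.6 CPM in HighDose libraries, against 0.763, 1.02 and 1.20 CPM in PBS libraries. Mndal had 20.1, 36.5 and 40.9 CPM in HighDose libraries, against 0.763, 0.775 and 0.507 CPM in PBS libraries, and Ifi207 had 32.2, 43.7 and 61.8 CPM in HighDose, against 0.436, 0.581 and 0.461 CPM in PBS. All HighDose libraries of these genes were above all PBS libraries, as in 85.8% of the tested genes. The log2 changes were 6.52 ± 0.33 for Ifi207, 5.78 ± 0.31 for Ifi203 and 5.57 ± 0.35 for Mndal (SE; edgeR adjusted p between 8.06e-22 and 1.06e-18).

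Among the 3 relatives, Ifi213 changed by 8.09 ± 0.47 and Ifi208 by 7.50 ± 0.41 on the log2 scale (SE, HighDose vs PBS, edgeR adjusted p = 6.38e-20 and 1.17e-20). Without PBS replicate 2, which held 4 of the 5 PBS counts, the value of Ifi213 was 9.60. Ifi214 had 46.3, 56.0 and 87.3 estimated counts in HighDose libraries and 0 in all 3 PBS and all 3 LowDose libraries. Against a floor of 3 counts over the group it was at least 57.4-fold higher in HighDose than in PBS.

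**Figure D2:**
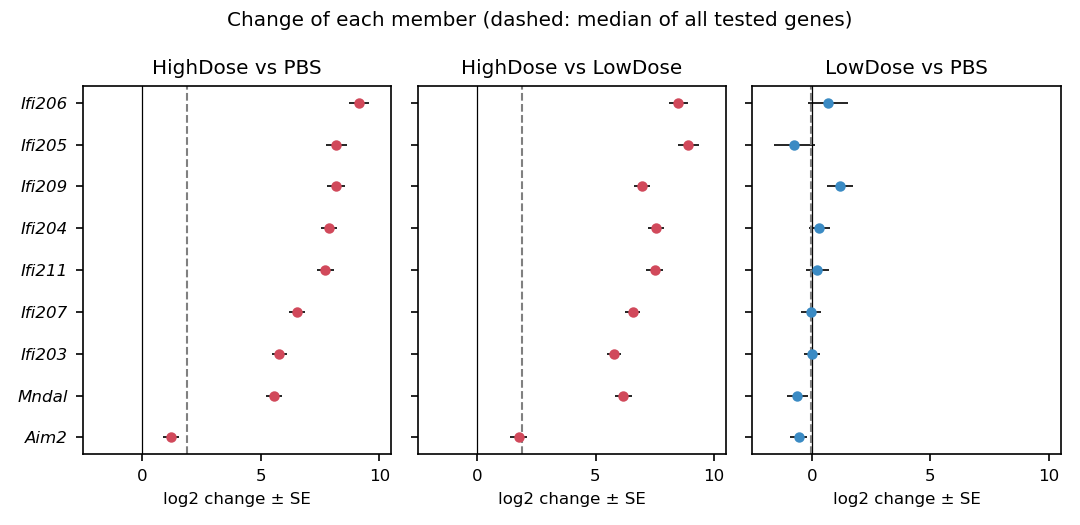
log2 change of each member with its SE (edgeR quasi-likelihood fit, library totals, 3 libraries per group) in 3 comparisons; x axes in log2 units, dashed lines at the median of all tested genes. In the panels with HighDose 8 members lie above 5 and Aim2 lies at 1.21 against PBS and 1.76 against LowDose, left of the dashed line, with a direction that turns or ends near 0 when libraries are scaled within the listed genes. In the LowDose vs PBS panel all members lie between -0.73 and 1.19.

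LowDose brain showed no called change in any of the 9 members against PBS brain. edgeR's quasi-likelihood test called 0 members, 1 member had an unadjusted p under 0.05, and each of the 21 other settings tried, DESeq2 and limma among them, also called 0. In the fit of LowDose and PBS alone Ifi205, Ifi206, Ifi207 and Ifi209 were too low to be tested. Over all tested genes, 0.442% were called higher and 2.15% lower in this comparison. The median log2 change was 0.00 over the members and -0.03 over all tested genes.

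Ifi209 had the largest upward value in LowDose, with 0.506, 0.360 and 0.267 CPM in LowDose libraries, against 0.164, 0.0969 and 0.231 CPM in PBS libraries. Its CPM values did not overlap between the groups, which held in this direction for 6.63% of tested genes, but its FPKM values did overlap. The log2 difference was 1.19 ± 0.54 (SE, unadjusted p = 0.0319, adjusted p = 0.332 by edgeR's quasi-likelihood test), on 12, 8 and 5 counts in LowDose and 3, 2 and 5 counts in PBS. Aim2 went the other way, with 1.39, 1.17 and 1.23 CPM in LowDose libraries, against 2.18, 1.74 and 1.66 CPM in PBS libraries. In CPM every LowDose library of Aim2 was below every PBS library, as in 13.1% of tested genes, while in FPKM the groups overlapped. The log2 difference was -0.55 ± 0.36 (SE, edgeR adjusted p = 0.643). Under scaling within the listed genes this difference was -0.34 to -0.52, also not called.

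The other 7 members overlapped between LowDose and PBS. Mndal had 0.548, 0.629 and 0.107 CPM in LowDose libraries, against 0.763, 0.775 and 0.507 CPM in PBS libraries, so LowDose replicate 3, with 2 counts, was the low one. Ifi205 held 0, 3.77 and 1.26 estimated counts in LowDose and 2.54, 5.11 and 0 in PBS. The log2 differences of these 7 members ran between -0.73 ± 0.86 for Ifi205 and 0.66 ± 0.84 for Ifi206 (SE). With so few counts, changes of about the size of these SEs were not detectable at this depth. Ifi203 was the best measured of the 7, with 65 counts over LowDose and 61 over PBS, and the 95% exact interval of its ratio of summed counts ran between 0.694 and 1.44 (counting error only).

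HighDose against LowDose tests the difference between the doses directly. All 9 members were called higher in HighDose, in a table where 88.1% of tested genes were, and no HighDose library overlapped a LowDose library, as in 86.5% of tested genes. The median log2 change was 6.97 over the members and 1.88 over all tested genes. Ifi205 changed by 8.92 ± 0.46 and Ifi206 by 8.49 ± 0.40 (SE; edgeR adjusted p = 1.35e-21 and 7.27e-23). Without LowDose replicate 2 the value of Ifi205 was 10.4 and without LowDose replicate 1 it was 8.30, below the main value of Ifi206, so the order of the 2 genes rests on single libraries. Aim2 had 3.37, 4.02 and 5.50 CPM in HighDose libraries, against 1.39, 1.17 and 1.23 CPM in LowDose libraries. Its log2 change was 1.76 ± 0.35 (SE, edgeR adjusted p = 1.57e-05) with library totals, but it lay between -0.13 and 0.04 and was not called with scaling within the listed genes. This comparison and the one with PBS share the HighDose libraries.

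By level per transcript length, the make-up of the family differed between the groups. Summed FPKM over the 9 members was 2.87, 2.47 and 2.66 in PBS libraries, 2.49, 2.54 and 1.85 in LowDose libraries and 138, 189 and 251 in HighDose libraries. The HighDose mean was 193 ± 56.8 and the PBS mean 2.67 ± 0.20 (SD, n = 3 each), a ratio of 72.3. As summed CPM, which does not move when reads are divided differently between members, the ratio was 86.2, and 134 without Aim2.

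Aim2 made up 55.1%, 38.9% and 42.1% of the summed FPKM in PBS libraries and 43.8%, 28.3% and 35.7% in LowDose libraries. In HighDose libraries it made up 1.61%, 0.927% and 1.35%. In HighDose the order was led by Ifi204 at 44.7 ± 11.5 FPKM and Ifi211 at 41.5 ± 12.1 FPKM (SD, n = 3), followed by Ifi205 with libraries between 19.4 and 33.6, then Mndal at 18.6, Ifi209 at 16.9, Ifi203 at 16.5, Ifi206 at 13.6, Ifi207 at 13.4 and Aim2 at 2.46 FPKM. Neighbours in this order overlapped in their HighDose libraries, except Ifi207 and Aim2, although Ifi204 stood above Ifi211 and Ifi211 above Ifi205 within each of the 3 libraries. In PBS, Aim2 averaged 1.22 FPKM, Mndal 0.44 and Ifi203 0.297, and the libraries of these 3 genes did not overlap. Below them came Ifi211, Ifi204, Ifi207, Ifi205, Ifi209 and Ifi206, which overlapped with their neighbours in the order down to 0.0267 FPKM.

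**Figure D3:**
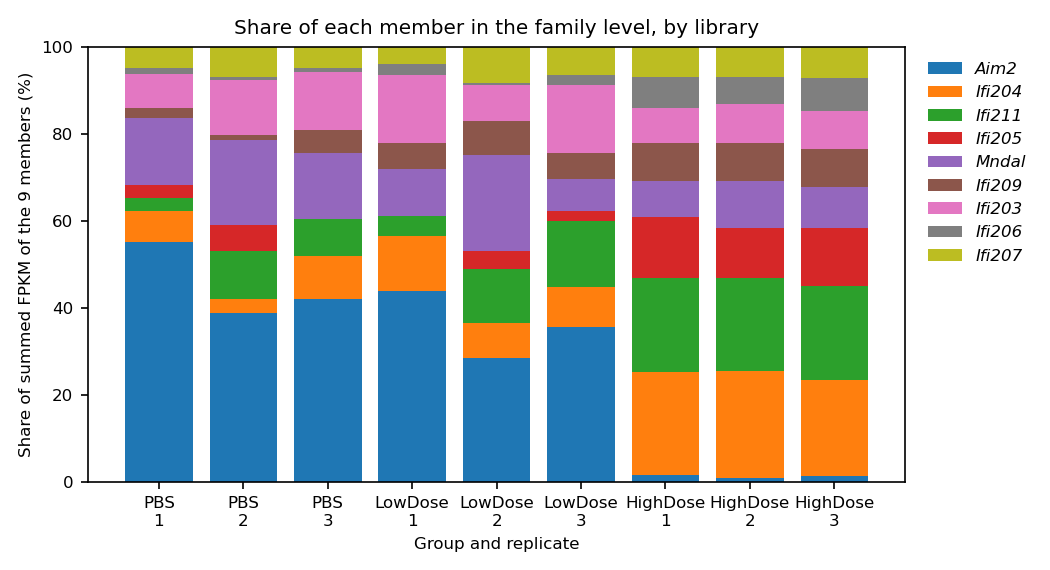
Share of each member in the summed FPKM of the 9 members, in percent, for each of the 9 libraries. Stacked colours are members, in the order of the legend from the bottom up. Aim2, at the bottom, takes 28.3% to 55.1% in PBS and LowDose libraries and 0.927% to 1.61% in HighDose libraries.

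The 3 HighDose libraries differed in the same way for each member. Replicate 1 was lowest and replicate 3 highest in CPM for all 9 members, an order that 979 of the 1583 tested genes (61.8%) shared. The ratio of highest to lowest HighDose library ran between 1.63 for Aim2 and 2.04 for Mndal. Of the summed FPKM in HighDose, Ifi209 took 8.79% ± 0.06, Ifi206 7.02% ± 0.71, Mndal 9.53% ± 1.19 and Aim2 1.30% ± 0.35 (SD, n = 3).

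Counts that are not whole numbers occurred in 8 of the 9 members; such counts arise when a read that fits several genes is divided between them, and how the authors counted was not stated. Ifi211 had a count that is not whole in 9 of 9 libraries, Ifi204 and Ifi205 in 7 each, Ifi206 and Mndal in 3 each, Ifi203 and Ifi209 in 2 each, Ifi207 in 1 and Aim2 in 0. Of all 50-base stretches in the transcripts of Ifi211, 72.8% also occurred in transcripts of another gene, most often Ifi205. The share was 33.7% for Ifi209, nearly all of it with Ifi214, and 25.6% for Ifi206. It was 20.0% for Ifi204, 19.6% for Mndal, 18.6% for Ifi205, 12.4% for Ifi203, 7.29% for Ifi207 and 0.742% for Aim2. The values of the members that share sequence, and the order between them, rest in part on how such reads were divided. The shares do not measure the size of that uncertainty. Summed CPM does not move with division between members, but some partners lie outside the 9. These include Ifi214 for Ifi209 (33.4%), Ifi208 for Ifi206 (11.1%) and Ifi203-ps for Ifi203 (8.85%). Rounding, truncating or keeping as deposited the counts that are not whole left all 9 members called in HighDose against PBS.

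**Figure D4:**
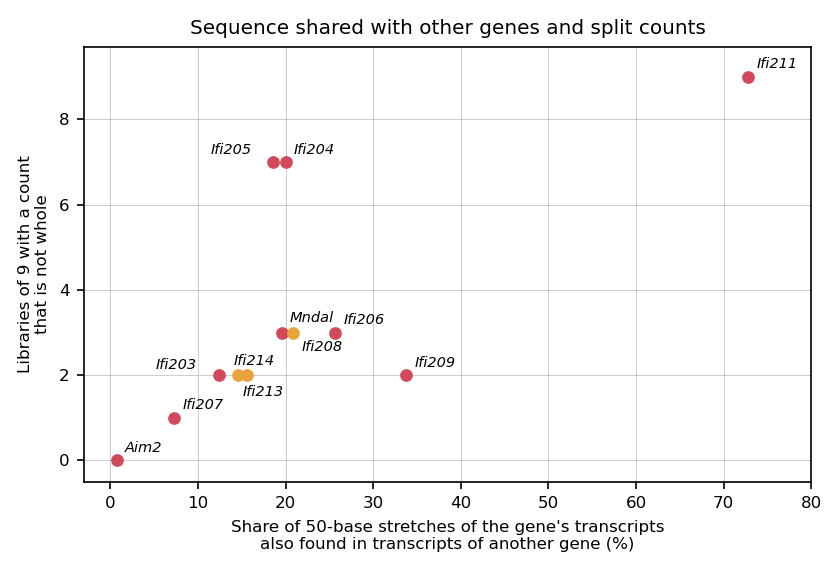
Sequence shared with other genes and divided counts. The x axis is the share of a gene's 50-base transcript stretches found also in transcripts of another gene (percent, GENCODE annotation), and the y axis is the number of the 9 libraries in which its deposited count is not whole. Red points are the 9 members and orange points the 3 relatives. Ifi211 stands at 72.8% with 9 libraries, and Aim2 at 0.742% with 0 libraries.

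Genes that act with AIM2 in inflammasomes were measured beside it. Of a list of 24 partners and related inflammasome genes 18 were in the table and all 18 were called higher by edgeR, with a median log2 change of 3.11. Over all tested genes the share called higher was 86.3% and the median 1.90, so the count of this list, like those of the lists below, is near that of the table. Scaling within the listed genes left 11 of them called higher, and the other 7, Pycard and Nlrp3 among them, were not called. Pycard, which encodes ASC, had 7.39, 8.90 and 9.62 CPM in HighDose libraries, against 1.96, 2.28 and 2.26 CPM in PBS libraries, a log2 change of 1.99 ± 0.31. Casp1 changed by 2.94 ± 0.31, Gsdmd (gasdermin D) by 3.44 ± 0.33 and Il1b by 3.30 ± 0.47 (SE; edgeR adjusted p between 1.10e-12 and 2.05e-07 for these 4 genes). These 4 changes were all larger than that of Aim2 itself and smaller than those of the other 8 members. Mefv, which encodes the pyrin protein, had 200 counts over the HighDose libraries and 0 in PBS, at least 60.5-fold higher, and Nlrc4 had the smallest change of the list, 1.25 ± 0.48, which was -0.43 to -0.40 and not called with scaling within the listed genes. Il18 was not analysed here. In LowDose against PBS, edgeR, DESeq2 and limma each called 0 of the 18, 0 had an unadjusted p under 0.05, and the median was -0.11.

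For the DNA-sensing route through STING and genes related to it, 8 of the 14 genes of the list were in the table. All 7 that could be tested were called higher in HighDose than in PBS with library totals, beside 86.3% of all tested genes. With scaling within the listed genes 4 of them were called higher. Cgas, the sensor that makes the messenger cGAMP, changed by 2.12 ± 0.36 and Sting1, the receptor of that messenger, by 2.06 ± 0.26 on the log2 scale (SE; edgeR adjusted p = 1.35e-06 and 1.50e-09), and neither was called with scaling within the listed genes. Zbp1, a sensor of Z-form nucleic acid that is also on the inflammasome list, had the largest change of the list at 8.34 ± 0.35, in the range of the PYHIN genes. Ifnb1, which encodes interferon beta, had 57 counts over the HighDose libraries and 0 in PBS and LowDose; it was at least 17.2-fold higher than in PBS by counts and too low for the test.

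Of 14 genes that carry interferon signals to promoters or restrain them, 9 were in the table. All 9 were called higher in HighDose than in PBS by edgeR, with a median log2 change of 4.22, beside 86.3% and 1.90 over all tested genes. The lists overlap, since Irf7 is also on the STING list and Irf1 on the inflammasome list. Stat2 changed by 3.70 ± 0.24, Irf9 by 3.86 ± 0.25 and Irf7 by 6.19 ± 0.29 (SE; edgeR adjusted p between 7.83e-23 and 4.65e-18). Usp18, a feedback inhibitor of the receptor, had the largest change at 7.06 ± 0.31. The receptor chain Ifnar2 had the smallest, 0.98 ± 0.22, and with scaling within the listed genes it was called lower, at -0.71 to -0.68, while the other 8 remained higher. In LowDose against PBS edgeR, DESeq2 and limma each called 0 of these 9, and 1 of them, Irf7, had an unadjusted p under 0.05 in edgeR. Of 13 genes around the PYHIN cluster 3 were listed, and all 3 were called higher in HighDose, again beside 86.3% of all tested genes, from Tagln2 at 2.12 ± 0.24 to Slamf8 at 5.56 ± 0.48.

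Likeness to the mean profile of the 9 members over the 9 libraries was measured as the root mean square difference of centred log2(CPM + 0.5). Among the 1248 candidate genes, whose median was 1.83, Slfn1 at 0.148, Ddx58 at 0.164, Isg20 at 0.167 and Gzmb at 0.168 were among the 5 most alike. The added 0.5 CPM damps changes of genes near 0 in PBS. Slfn1 and Gzmb, with 2 and 4 counts over PBS, had log2 changes of 9.10 and 8.57 (HighDose vs PBS), beside 5.50 for Ddx58. The relatives were not candidates, and Ifi213 at 0.119 and Ifi208 at 0.136 were closer, with Ifi214 at 1.25. Ddx58, which encodes the cytosolic RNA sensor RIG-I, had 5.62 ± 0.169 CPM in PBS, 4.88 ± 1.05 in LowDose and 254 ± 76.0 in HighDose (SD, n = 3 each). Of the members themselves Ifi207 was closest to the family mean at 0.148 and Aim2 farthest at 1.96.

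Most listed markers of monocytes, T cells, dendritic cells and NK cells were higher in HighDose, like the PYHIN members and like 86.3% of all tested genes. Of 9 monocyte and macrophage markers 5 were listed, with summed levels of 1.94 to 2.84 CPM in PBS, 2.08 to 3.17 in LowDose and 141 to 247 in HighDose, and 4 of the 5 were called higher in HighDose than in PBS and Cd163 lower. Of 9 T cell markers 8 were listed, at 0.533 to 1.43 CPM in PBS, where Cd3d was at 0, 1.34 to 1.84 in LowDose and 13.5 to 29.0 in HighDose, and all 8 were called higher in HighDose than in PBS. These calls held with scaling within the listed genes, where 600 of the 1583 tested genes were called higher by TMM factors. Dendritic cell markers, 4 of 5 listed, summed to 16.1 to 31.4 CPM in HighDose, 1.05 to 2.46 in LowDose and 0.533 to 1.06 in PBS, with Xcr1 at 0 in PBS. NK cell markers, 4 of 4 listed, summed to 2.93 to 6.23 CPM in HighDose, 0 to 0.0899 in LowDose and 0.145 to 0.599 in PBS, with Klre1 at 0 in PBS. Of the NK cell markers edgeR with library totals called Eomes lower in LowDose than in PBS, and scaling within the listed genes did not.

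Microglial markers had smaller changes than 8 of the 9 PYHIN members. The 4 of 9 that were listed summed to 85.0 to 105 CPM in PBS, 79.1 to 87.5 in LowDose and 124 to 147 in HighDose. With library totals 3 of the 4 were called higher in HighDose than in PBS, led by Aif1 at a log2 change of 2.27, and P2ry12, a receptor of resting microglia, was called lower at -0.97; with scaling within the listed genes 1 was called higher and 3 lower. B cell markers, 4 of 4 listed, summed to 2.76 to 5.72 CPM in HighDose, 0.337 to 0.674 in LowDose and 0.600 to 0.922 in PBS. The astrocyte marker Gfap, the only 1 of 5 listed, had 374 to 534 CPM in HighDose, 100 to 168 in LowDose and 113 to 146 in PBS. The 3 of 6 oligodendrocyte markers listed summed to 797 to 1089 CPM in HighDose, 1004 to 1221 in LowDose and 1663 to 2182 in PBS. Against PBS edgeR with library totals called 3 of these 3 lower in HighDose and 2 in LowDose, beside 10.7% and 2.15% of tested genes. With scaling within the listed genes these counts were 3 and 0. Of the neutrophil and endothelial markers 0 were listed. The summed monocyte and macrophage, T cell, dendritic, NK and B cell markers and Gfap were, like the PYHIN members and 61.8% of all tested genes, lowest in HighDose replicate 1 and highest in replicate 3. The part of these cells in the PYHIN values was not tested.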

How the data were processed

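Bulk RNA-seq of 9 libraries in 3 groups was analysed from a single deposited table. Per the file headers it holds, for each gene and library, the authors' estimated count and FPKM; 7.66% to 14.0% of the counts in a library are not whole numbers. The submitters' processing notes name mm10, DESeq2 and edgeR without saying what each was used for; the aligner and the counter were not given in the sources used here. All 1710 genes differ at least 2-fold between some pair of group means.

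Library totals (18.3 to 23.7 M, where M is 1000000) were recovered from count, FPKM and the lengths of single-transcript genes (GENCODE M21), and CPM are counts per 1000000 of that total. Counts were rounded and tested with edgeR 4.0.16 in R 4.3.3 (glmQLFit and glmQLFTest on all 9 libraries, group only, library totals without further factors, minimum count 10), with Benjamini-Hochberg adjustment over 1583 genes and a threshold of 0.05. SE is the log2 change divided by the square root of F. The fit was also run on simulated data, with changes balanced in direction and smaller than those of most members. That run therefore does not test the fit on changes as large and as one-sided as those here. Intervals and floors (3 counts) cover counting error only.

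Genes were matched by Ensembl ID (1704 of 1710 found). Named genes were all members, a set of pathway genes, the highest and lowest of each list, and the 5 genes with the most similar profile at a mean of at least 1 CPM; some of the genes this rule names are not reported here. Members, lists and tests were chosen with earlier results of these data known. Alternatives covered scaling, filters, rounding, DESeq2 1.42.0, limma 3.58.1 (voom), the groups in the fit, a replicate block and leaving out each library.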

Additional observations from a re-analysis of the deposited data

How the results depend on the processing

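In HighDose against PBS and against LowDose 9 members were called in each of the 18 settings that kept library totals. These settings include leaving out each single library. In the main fit 86.3% of all tested genes were called higher against PBS and 88.1% against LowDose. Without single libraries 1339 to 1429 genes were called higher against PBS and 1373 to 1456 against LowDose. With scaling within the listed genes 8 members were called, and the change of Aim2 was reversed or ended. Its log2 change against PBS was -0.51 with TMM factors, -0.48 with DESeq2 size factors and -0.48 with the listed sum, and against LowDose -0.00053, 0.04 and -0.13; without single libraries it was 0.99 to 1.36 and 1.54 to 1.91. These 3 scalings (in this order) called 600, 605 and 607 genes higher and 464, 455 and 454 lower in HighDose against PBS, and 565, 576 and 524 higher and 461, 445 and 524 lower against LowDose, by construction, since they take the listed genes as mostly unchanged. In LowDose against PBS, 7 genes were called higher and 34 lower; TMM and DESeq2 factors gave 3 higher and 3 lower each, the listed sum 2 lower, voom 17 and 79, the fit of the 2 groups alone 11 higher, and limma on log2(FPKM + 0.1), chosen after seeing the data, 1 and 3. Leaving out single libraries gave 5 to 22 higher (22 without LowDose replicate 1) and 18 to 57 lower (57 without LowDose replicate 1, 18 without LowDose replicate 3); the cause was not tested. Same-numbered libraries of different groups tended to deviate alike, with r of -0.0055 to 0.25, above 0.1 in 5 of 9 pairs. Differently numbered pairs had r of -0.18 to 0.13. In 14 of 18 comparisons the highest r was at the own number, a hint from the data and not the design. The main fit, with group only, does not take this likeness into account. A replicate block gave 12 genes higher in LowDose against PBS and changed no member's call. LowDose and PBS values of the 8 members other than Aim2 rest on few counts, which limits what could be seen there.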
